A study of Mus musculus with 7 samples.

Results

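The D cyclins, the G1 kinases and their inhibitors were followed through 7 cell lines of Eµ-Myc mouse lymphomas at end stage. The group was set by name as 10 genes of the 27179 in the count tables. They are the D cyclins Ccnd1, Ccnd2 and Ccnd3, the kinases Cdk4 and Cdk6, the INK4 inhibitors Cdkn2b, Cdkn2c and Cdkn2d, the CIP/KIP inhibitor Cdkn1b and the target of the kinases, Rb1. All 10 were matched by their Entrez identifiers, and all 10 passed the filter on low counts, Ccnd2 in 4 lines and Cdkn2b in 3. There were 3 wild-type lines and 4 Smchd1 null lines, the latter labelled as homozygous for a gene trap in Smchd1 (the study's methods name the MD1 allele), which encodes a chromatin protein with a role in gene silencing. Every line carried the Eµ-Myc transgene, in which an immunoglobulin heavy chain enhancer drives Myc in B lineage cells, and all were labelled as C57BL/6 and male. The labels do not say whether each line came from its own mouse, so p-values measure the spread between these lines only, which may be technical.

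A cell in G1 commits to DNA replication when D cyclins bind CDK4 or CDK6 and the active kinase phosphorylates the retinoblastoma protein, which then lets go of the E2F transcription factors. INK4 proteins bind CDK4 and CDK6 and block them. The CIP/KIP protein p27, made from Cdkn1b, inhibits CDK2 and is also held by cyclin D complexes. Cdk4 is a known target gene of Myc, and loss of the locus of Cdkn2a and Cdkn2b is a known event in lymphoid tumours.

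Total counts ran from 3626853 to 7519549 per line, and 3 counts, taken as the limit that a count of 0 allows, came to 0.399 to 0.827 CPM (counts scaled to the library total). Smchd1 was at 219 to 248 CPM in wild-type and 22.6 to 28.7 CPM in Smchd1 null lines (exact permutation test, two-sided, p = 0.02857, the smallest that 3 against 4 lines allows). Wild-type replicate 1 was the only library of batch 1 and the only one from single-end reads, so that batch cannot be compared between the groups. Wild-type replicates 2 and 3 were more alike than any other pair of a group, at a leading log2 fold change distance of 1.88 against at least 3.97. Wild-type replicate 1 and Smchd1 null replicate 4 stood apart, with weights of 0.246 and 0.249 in the fit, where the other lines had 0.831 to 3.79. Smchd1 null replicate 4 also had the lowest summed level of 11 B lineage markers, 514 CPM against 1412 to 2329 CPM in the other 6 lines. The other marker lists were lower. The 8 T and NK cell markers, mostly Lck, summed to 17.9 to 62.6 CPM in wild-type and 1.29 to 14.8 CPM in Smchd1 null lines, with Cd3e, Cd8a and Ncr1 at 0 in every line. The 6 endothelial and stromal markers, mostly Pecam1, summed to 57.1 to 70.5 CPM and 63.1 to 221 CPM (1 at 0 in every line), the 7 myeloid markers to 2.76 to 12.2 CPM and 0.296 to 26.2 CPM (3 at 0), and the 4 erythroid markers to at most 1.33 CPM (1 at 0). Of the markers, the weighted fit put Cd79a higher in Smchd1 null lines and Ebf1 and Lck lower (log2 fold changes 0.96, -0.67 and -2.69, limma FDR 0.0445, 0.0494 and 0.0312). These were 2 of 11 B lineage markers and 1 of 2 T and NK markers tested, where 11.9% of all genes tested had an FDR under 0.05. No marker tested in the other lists did. The groups did not overlap in Cd79b (1 of 11) and Lck (1 of 2), where 13.2% of all genes tested had no overlap. They did overlap in Cd79a and Ebf1. Cd79a was at 181 to 231 CPM in wild-type lines and at 409, 414, 444 and 100 CPM in Smchd1 null replicates 1 to 4. Ebf1 was at 54.0 CPM in wild-type replicate 1 and 57.2 CPM in Smchd1 null replicate 2.

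Levels of different genes were compared as CPM per kilobase of the gene length in the count tables. Cdk4 led at a median of 302 CPM per kb, and its lowest line was above the highest line of every other gene of the group. Ccnd1 came next at 53.7 CPM per kb and exceeded Ccnd3, at 43.0 CPM per kb, in all 7 lines. Cdkn1b followed at 25.8 CPM per kb, and its range overlapped that of Ccnd3. Cdkn2d, Cdkn2c and Rb1 had medians of 17.9, 14.9 and 13.9 CPM per kb. Their order was not stable, since Cdkn2d was above Cdkn2c in 4 of 7 lines and Cdkn2c above Rb1 in 3 of 7. Cdk6 was at 4.06 CPM per kb, below Rb1 in all 7 lines. Ccnd2 and Cdkn2b were at the bottom, with medians of 0.167 and 0 CPM per kb, and could not be ranked against each other.

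**Figure D1:**
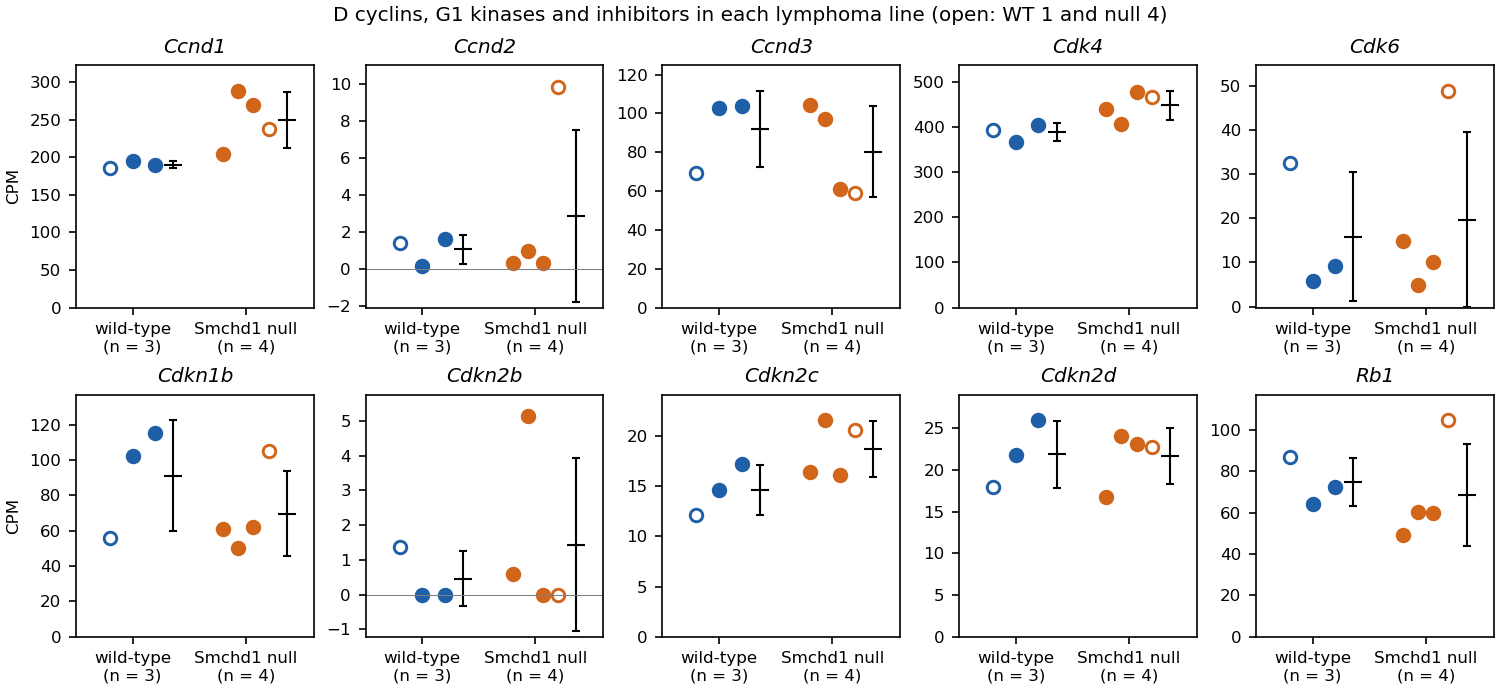
CPM of each gene (vertical axis, a separate scale per gene) in the 3 wild-type lines (blue) and 4 Smchd1 null lines (orange), where each point is 1 line, open points are wild-type replicate 1 and Smchd1 null replicate 4, and black marks are the mean ± SD. The groups are apart in Ccnd1 and, narrowly, in Cdk4, and the open points are the highest 2 in Cdk6 and, with Smchd1 null replicate 4 at 105 CPM, in Rb1.

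Voom with sample weights, a linear model in which each library counts according to how well it follows its group, compared Smchd1 null with wild-type lines across 12303 genes. It called 11.9% of them differentially expressed (DE), at a false discovery rate (FDR) under 0.05. Of the 10 genes of the group 1 was DE, Cdkn1b, which fell, so that the share called was near that of all genes. The median log2 fold change of the 10 was 0.21, against -0.0058 for all genes tested. Ccnd1 and Cdk4 had no overlap between the groups, 2 of 10, where 13.2% of the genes tested had none. Whether the counting used strand is not given in the sources used here, and 7 of the 10 genes overlap another RefSeq gene. For 5 of them a partner was also counted (LTO1 for Ccnd1, 9330179D12Rik for Ccnd2, Bysl for Ccnd3, Tspan31 for Cdk4, and Lpar6 and Mir687 for Rb1), and reads in the shared bases cannot be told apart.

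**Figure D2:**
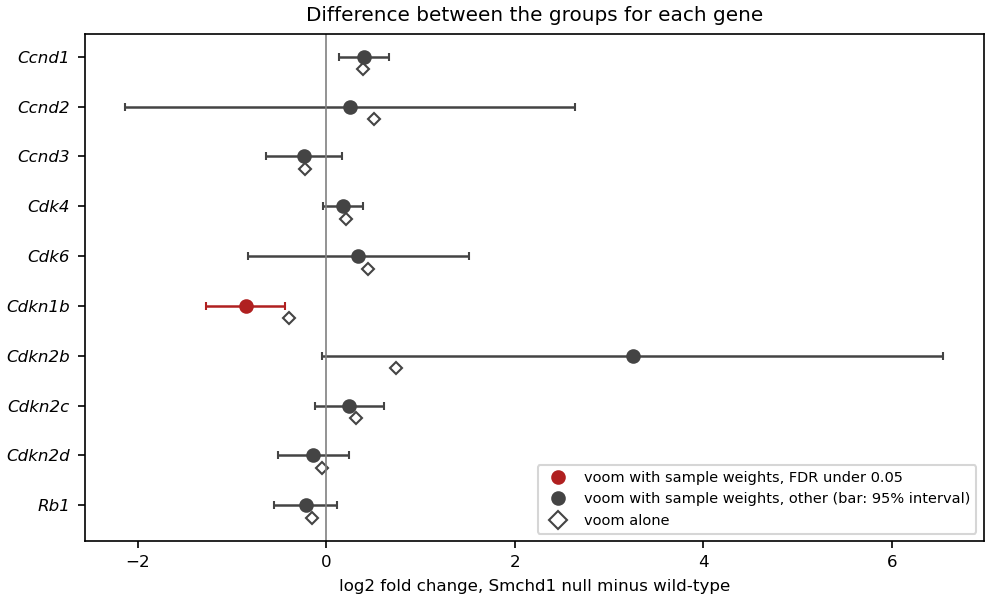
Log2 fold change of each gene between Smchd1 null and wild-type lines (horizontal axis), with circles for voom with sample weights, bars for its unadjusted 95% interval and open diamonds for voom alone. Cdkn1b (red) is the DE gene at -0.85, and its diamond, at -0.39, is nearer to 0.

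Among the D cyclins, Ccnd1 (Entrez 12443, GRCm38 chromosome 7, 144929931 to 144939831, minus strand) was at 186, 195 and 189 CPM in wild-type replicates 1 to 3. In Smchd1 null replicates 1 to 4 it was at 204, 288, 270 and 238 CPM. Every Smchd1 null line lay above every wild-type line, and replicate 1 was the nearest to them. The means were 190.1 CPM ± 4.44 (SD, n = 3) and 249.9 CPM ± 37.0 (SD, n = 4). The log2 fold change was 0.40 (standard error 0.115, 95% interval 0.14 to 0.66), and its limma FDR of 0.0578 missed the threshold. The direction held in all 18 alternatives, with log2 fold changes from 0.34 to 0.51. Ccnd1 passed the threshold in 1 of them, without Smchd1 null replicate 1 (limma FDR 0.0491). The constant direction adds no support, since groups without overlap leave little room for a change of sign. The limma FDR was 0.385 with voom alone, and 0.867 and 0.834 without wild-type replicate 2 or 3.

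Ccnd3 (Entrez 12445, GRCm38 chromosome 17, 47505051 to 47599689, plus strand) varied within both groups. It was at 69.2, 103 and 104 CPM in the wild-type lines and at 104, 97.2, 61.0 and 59.0 CPM in the Smchd1 null lines. Each group held higher and lower lines in the same range, and the log2 fold change was -0.24 (95% interval -0.64 to 0.16, limma FDR 0.384). Ccnd2 (Entrez 12444, GRCm38 chromosome 6, 127125162 to 127152188, minus strand), a D cyclin that antigen receptor signals induce in normal B cells, was low. The wild-type lines had 5, 1 and 11 counts of it, and Smchd1 null replicates 1 to 3 had 2, 6 and 2. Smchd1 null replicate 4 had 74 counts, or 9.84 CPM (exact 95% binomial interval 7.73 to 12.4, for counting error only). It thus stood alone, and the part of its low B lineage markers in this was not tested. With counts this low and this spread between lines, no difference between the groups in Ccnd2 was detected (log2 fold change 0.25, 95% interval -2.13 to 2.64, limma FDR 0.891). Without Smchd1 null replicate 4 the log2 fold change was 0.0099.

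Ccnd1 made up 51.9% to 72.5% of the D cyclin CPM per kb in each line, Ccnd3 27.5% to 47.8% and Ccnd2 at most 1.88%. The share of Ccnd1 was 55.5% ± 5.16 (SD, n = 3) in wild-type lines and 64.8% ± 8.18 (SD, n = 4) in Smchd1 null lines, with overlapping ranges. Smchd1 null replicates 3 and 4 had the highest Ccnd1 shares, at 72.5% and 69.3%, and the lowest Ccnd3 levels. The summed D cyclin level was 79.9 to 96.8 CPM per kb in wild-type lines and 90.5 to 119 CPM per kb in Smchd1 null lines.

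**Figure D3:**
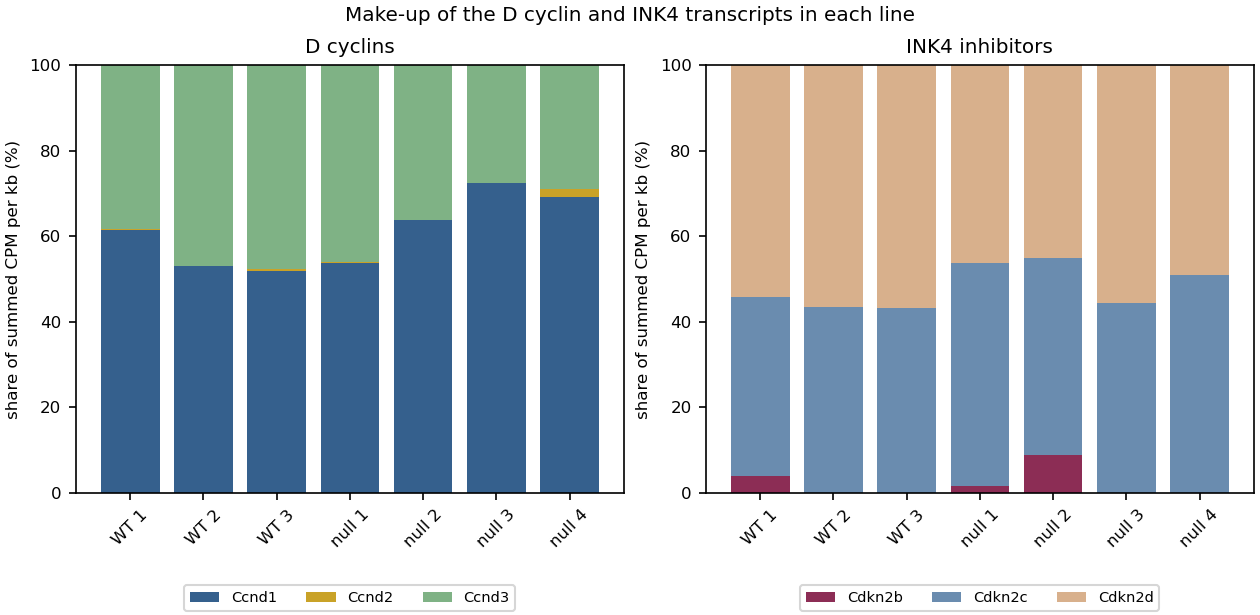
Stacked bars give the share of each gene in the summed CPM per kb (vertical axis, %) of the D cyclins and of Cdkn2b, Cdkn2c and Cdkn2d, for each of the 7 lines (WT, wild-type; null, Smchd1 null). Ccnd1 is the largest share of the D cyclins in every line, from 51.9% to 72.5%, and Cdkn2b is visible in 3 lines.

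The kinases differed in how much they varied. Cdk4 (Entrez 12567, GRCm38 chromosome 10, 127063535 to 127067288, plus strand) was at 393, 366 and 406 CPM in the wild-type lines and at 440, 407, 478 and 467 CPM in the Smchd1 null lines. The groups did not overlap, but wild-type replicate 3 and Smchd1 null replicate 2, at 405.7 and 407.3 CPM, were within counting error of each other. The log2 fold change was 0.18 (95% interval -0.034 to 0.39, limma FDR 0.223). After TMM scaling Cdk4 spanned 0.39 on the log2 CPM scale over the 7 lines, and 4.75% of the genes tested spanned less. Counts of so high a gene are also more precise than those of a low one.

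Cdk6 (Entrez 12571, GRCm38 chromosome 5, 3341004 to 3531008, plus strand) spanned 3.24 on the same scale, and 84.5% of the genes tested spanned less. It was at 32.5, 5.90 and 9.09 CPM in the wild-type lines and at 14.8, 4.98, 10.04 and 48.8 CPM in the Smchd1 null lines. It was highest in Smchd1 null replicate 4 and wild-type replicate 1, the line lowest in B lineage markers and the line of batch 1, whose part in the Cdk6 level was not tested. The log2 fold change of Cdk6 was 0.34 (95% interval -0.83 to 1.51, limma FDR 0.688), and it was 0.11 without Smchd1 null replicate 4. Cdk4 made up 94.6% to 99.3% of the summed CPM per kb of the kinases.

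RefSeq promoters of 7 of the 10 genes were searched over the 250 bases before the start site, on both strands. The search was for the E-box CACGTG, a sequence bound by Myc, and for TTTNNCGC, letters that cover a common E2F site. N stands for any base, so a match to TTTNNCGC need not be that site. An E-box was found in 6.02% of the 32851 promoter windows of the table and TTTNNCGC in 4.28%. The kinase promoters are shown because they were the ones of the group with a match. The window of Cdk4 (GRCm38.p6, chr10:127063285-127063534, plus strand) held 4 E-boxes, 172, 118, 98 and 11 bases before the start site, and 0.0213% of all windows held at least 4. That of Cdk6 (GRCm38.p6, chr5:3343643-3343892, plus strand) held 1 E-box and 1 match to TTTNNCGC, and its start site lies inside the span of the gene given above. No match was found in the windows of Ccnd3, Cdkn1b, Cdkn2b, Cdkn2c and Cdkn2d. Capitals mark the matches, and the sequences run 5′ to 3′.
Cdk4: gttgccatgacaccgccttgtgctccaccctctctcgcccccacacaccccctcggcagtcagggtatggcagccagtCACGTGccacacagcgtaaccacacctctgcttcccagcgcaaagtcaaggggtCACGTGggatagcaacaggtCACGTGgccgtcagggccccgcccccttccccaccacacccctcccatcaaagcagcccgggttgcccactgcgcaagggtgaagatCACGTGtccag
Cdk6: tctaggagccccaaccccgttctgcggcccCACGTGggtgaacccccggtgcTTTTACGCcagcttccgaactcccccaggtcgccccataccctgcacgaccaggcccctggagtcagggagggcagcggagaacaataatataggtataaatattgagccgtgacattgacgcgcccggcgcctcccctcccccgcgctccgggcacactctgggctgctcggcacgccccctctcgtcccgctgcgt

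Cdkn1b (Entrez 12576, GRCm38 chromosome 6, 134920401 to 134925525, plus strand), the gene of p27, was the DE gene of the group. It was at 55.7, 102 and 115 CPM in wild-type replicates 1 to 3. Smchd1 null replicates 1 to 4 were at 61.0, 50.3, 61.9 and 105 CPM. The groups overlapped, because wild-type replicate 1 lay among the low lines and Smchd1 null replicate 4 among the high ones, and these were the lines with the smallest weights. The log2 fold change with sample weights was -0.85 (standard error 0.182, limma FDR 0.0267), a fold of 0.554. The plain means, 91.0 CPM ± 31.3 (SD, n = 3) and 69.5 CPM ± 24.1 (SD, n = 4), gave a ratio of 0.764. With voom alone, which has no sample weights, the log2 fold change was -0.39 and the limma FDR 0.693.

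The call for Cdkn1b also rested on single lines. Leaving out wild-type replicate 2 or 3 gave log2 fold changes of -0.46 and -0.37 (limma FDR 0.935 and 0.917), and leaving out Smchd1 null replicate 1 or 2 gave -0.79 and -0.67 (limma FDR 0.0916 and 0.124). Within batch 2 it was -0.89 (limma FDR 0.0156), where the wild-type group was made up of replicates 2 and 3, the pair of smallest distance. With those summed into 1 sample it was -0.45 (limma FDR 0.913). The other 11 genes tested within 1 Mb of Cdkn1b had a median log2 fold change of -0.29, and 1 of them was DE. The neighbours of the other members with 6 or more such genes had medians from -0.15 (Cdk4) to 0.27 (Ccnd2).

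**Figure D4:**
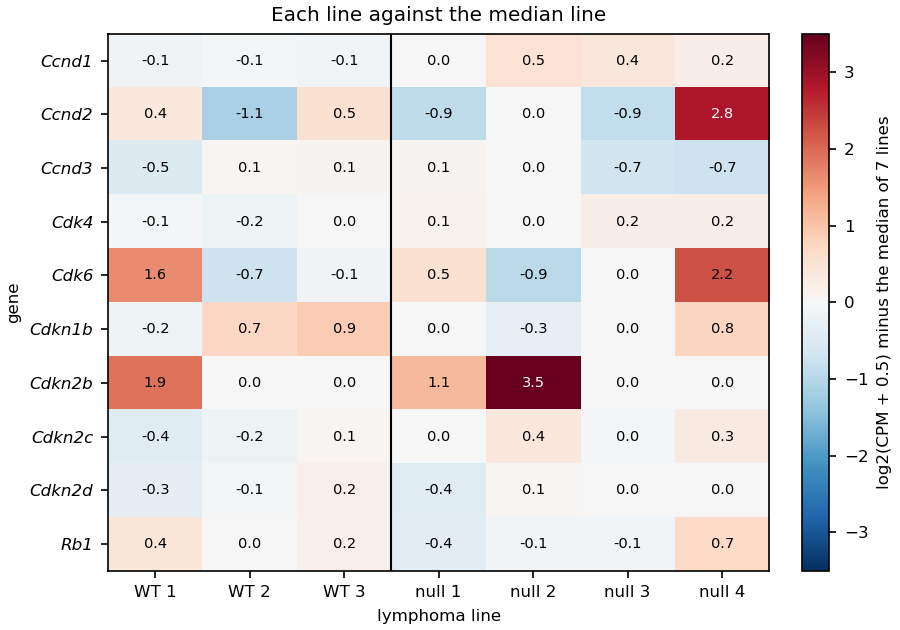
Each cell gives log2(CPM + 0.5) of a gene (row) in a line (column; WT, wild-type; null, Smchd1 null) minus the median of that gene over the 7 lines, red above and blue below it. Smchd1 null replicate 4 stands 2.8 above the median in Ccnd2 and 2.2 in Cdk6, whereas the row of Cdk4 stays within 0.23 of it.

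The INK4 genes Cdkn2c and Cdkn2d varied little beside Cdkn2b. Cdkn2c (Entrez 12580, GRCm38 chromosome 4, 109660876 to 109666756, minus strand), the gene of p18, was at 12.1, 14.6 and 17.1 CPM in wild-type lines and at 16.4, 21.5, 16.1 and 20.6 CPM in Smchd1 null lines. Cdkn2d (Entrez 12581, GRCm38 chromosome 9, 21288459 to 21291421, minus strand), which encodes another INK4 protein, was at 17.9, 21.8 and 25.9 CPM and at 16.7, 24.1, 23.2 and 22.7 CPM. The groups overlapped in both genes. The log2 fold changes were 0.25 (95% interval -0.12 to 0.61, limma FDR 0.323) for Cdkn2c and -0.14 (-0.51 to 0.24, limma FDR 0.6) for Cdkn2d. Cdkn2b took at most 8.76% of the summed CPM per kb of these 3 genes, which was 26.1 to 35.9 CPM per kb in wild-type and 28.5 to 42.1 CPM per kb in Smchd1 null lines.

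Cdkn2b (Entrez 12579, GRCm38 chromosome 4, 89306289 to 89311032, minus strand), the gene of p15, had 5, 0 and 0 counts in wild-type replicates 1 to 3 and 4, 32, 0 and 0 counts in Smchd1 null replicates 1 to 4. It was at 0 in 4 of 7 lines, from both groups, which allows up to 0.492 and 0.440 CPM in wild-type replicates 2 and 3 and up to 0.463 and 0.399 CPM in Smchd1 null replicates 3 and 4. Its highest level was 5.14 CPM in Smchd1 null replicate 2 (exact 95% binomial interval 3.52 to 7.26). The fitted log2 fold change was 3.25 with sample weights (95% interval -0.042 to 6.54, limma FDR 0.162) and 0.74 with voom alone. Over the alternatives that tested Cdkn2b it ran from 0.74 to 4.16. The value thus depends on the weights and on lines at 0, where voom puts a small constant in place of the count. It gives no bound.

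Genes beside Cdkn2b on chromosome 4 are given because 4 lines lacked its counts. Distances are between the lowest coordinates of the genes, so the gaps between genes are smaller. Cdkn2a, the gene of p16 and p19Arf, at a distance of 32 kb, had 845 counts in wild-type replicate 1, 31 in Smchd1 null replicate 1 and 1 in Smchd1 null replicate 2. In the 4 lines without Cdkn2b counts it also had 0 counts. Mtap, a gene of methionine salvage at a distance of 169 kb, had 0 counts in Smchd1 null replicate 3, where the other lines had 579 to 1323. Klhl9 and Focad, farther on the same side, were at 73.5 to 139.5 CPM and 46.6 to 68.65 CPM, and Smchd1 null replicate 3 lay within these ranges at 84.5 and 57.3 CPM. Smchd1 null replicate 3 thus had no counts of Mtap, Cdkn2a and Cdkn2b, whereas wild-type replicates 2 and 3 and Smchd1 null replicate 4 had none of Cdkn2a and Cdkn2b and 88.4 to 136.4 CPM of Mtap. The cause was not tested, and DNA of the lines was not analysed here.

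**Figure D5:**
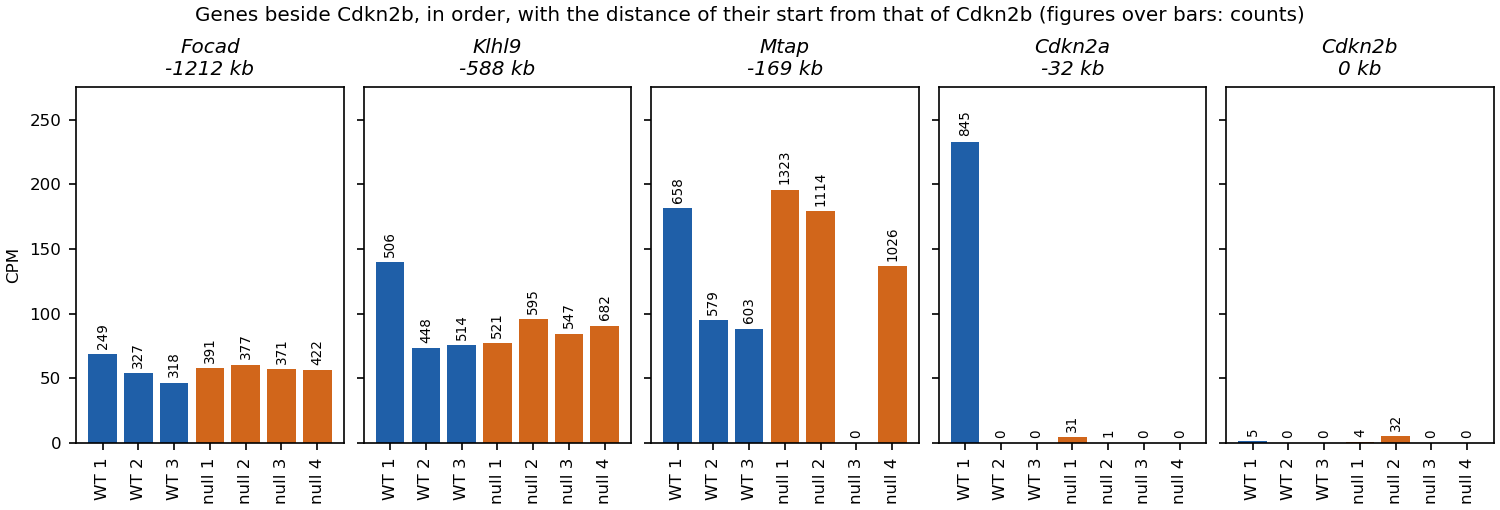
CPM (vertical axis) of Cdkn2b and of 4 genes on 1 side of it, in genomic order with the distance of their starts in kb, in each of the 3 wild-type lines (blue, WT) and 4 Smchd1 null lines (orange, null), with the count over each bar. Mtap has 0 counts in Smchd1 null replicate 3 alone, and Cdkn2a and Cdkn2b both have 0 in 4 lines.

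Rb1 (Entrez 19645, GRCm38 chromosome 14, 73192858 to 73325951, minus strand), which the kinases phosphorylate, was at 87.1, 64.3 and 72.7 CPM in the wild-type lines and at 49.0, 60.2, 59.9 and 105 CPM in the Smchd1 null lines. Smchd1 null replicates 1 to 3 lay below every wild-type line and replicate 4 above all of them. The log2 fold change was -0.22 (95% interval -0.55 to 0.12, limma FDR 0.339), and without Smchd1 null replicate 4 it was -0.28 (limma FDR 0.168). In bulk libraries such as these, fewer cells with a gene's RNA and less of it per cell cannot be told apart.

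The rest of the pathway was followed in 3 lists. Of 22 further genes of the G1 to S transition 21 were tested and 1 was DE, 4.76% against 11.9% of all genes, and their median log2 fold change was 0.14. The groups did not overlap in 3 of the 21, where 13.2% of all genes tested had no overlap. The DE gene was Cdkn1c, a CIP/KIP inhibitor, which rose (limma FDR 0.0199). It was at 0.551, 0.328 and 0.293 CPM in wild-type lines, each below 3 counts, and at 1.18, 2.09, 1.54 and 1.73 CPM in Smchd1 null lines. The highest gene of the list, the E2F partner Tfdp1, averaged 318 CPM in wild-type and 336 CPM in Smchd1 null lines (log2 fold change 0.15, limma FDR 0.253).

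Of 12 genes in the turnover of p27 and the D cyclins 1 was DE, 8.33% against 11.9% of all genes. Their median log2 fold change was -0.032. Ddb1, the adaptor of CUL4 ubiquitin ligases, was also the highest gene of the list and fell. It was at 918, 1094 and 1162 CPM in wild-type lines and at 698, 649, 662 and 560 CPM in Smchd1 null lines. It was the 1 gene of the list in which the groups did not overlap (log2 fold change -0.76, standard error 0.0925, limma FDR 0.00737). Of all genes tested 13.2% had no overlap.

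Of 20 E2F target genes 2 were DE, in opposite directions, 10% against 11.9% of all genes. Their median log2 fold change, over the 20, was 0.065. The groups did not overlap in 7 of the 20, where 13.2% of all genes tested had no overlap. Pcna, the DNA polymerase clamp, rose from 171, 228 and 225 CPM to 297, 326, 379 and 373 CPM (log2 fold change 0.56, limma FDR 0.0184). Mcm6, a subunit of the replicative helicase and the highest gene of the list, fell from 675, 636 and 634 CPM to 413, 432, 554 and 586 CPM (log2 fold change -0.47, limma FDR 0.0303). The groups did not overlap in either gene.

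For the 3 members whose log2 CPM spanned more than 2 over the 7 lines, the genes of nearest pattern were taken by the root mean square difference of centred log2 CPM. For Cdk6 these were Magi3 and Acacb, at 0.33 and 0.36. For Ccnd2 they were Rab6b and Ncf1, at 0.64 and 0.67, and for Cdkn2b Ccdc190 and Scimp, at 0.96 and 1.14. Counts of Ccnd2 and Cdkn2b were low, and the values are a description with no test.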

How the data were processed

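RNA of 7 lymphoma cell lines was sequenced from Illumina TruSeq libraries. The authors de-multiplexed the reads with CASAVA (version 1.8.2), aligned them to mm10 with Subread and deposited raw counts per gene from featureCounts, with gene lengths and no normalisation. Strand, multi-mapping and annotation release are not given in the sources used here. Symbols and coordinates came from RefSeq GRCm38.p6, the build of mm10, by Entrez identifier (25275 of 27179 genes matched), and strands from GENCODE.

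CPM was the count over the library total. Following the study, a gene needed 0.5 CPM in no fewer than 3 samples to be kept (12303), TMM factors were computed in edgeR (version 4.0.16), and Smchd1 null was compared with wild-type by voomWithQualityWeights in limma (version 3.58.1, R version 4.3.3), with FDR over all genes tested. The main fit, but none of the alternatives, was tested on simulated data. There all libraries were equally variable and the changes large, so the simulation does not cover libraries of unequal weight such as these. Alternatives, DESeq2 (version 1.42.0) among them, are in the closing section. Exact binomial intervals and the 3-count limit cover counting error only. Members and lists were chosen with earlier results of these data known. Of the lists, genes that were DE or had the highest mean CPM were named, and DE markers. Genes beside Cdkn2b were named after their values were seen.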

Additional observations from a re-analysis of the deposited data

Results flagged for a closer look

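The 10 genes were screened on the CPM scale for a Smchd1 null line far from the other 3, by its gap to the nearest line over the range of the 4 lines. For normally distributed values chance would give about 0.5 such genes among 10, and 2 were found. CPM of genes with low counts need not be so distributed, so the 2 found cannot be weighed against chance. Ccnd2 in Smchd1 null replicate 4 was at 9.84 CPM, with the next line at 0.964 CPM. Cdkn2b in Smchd1 null replicate 2 was at 5.14 CPM, with the next line at 0.592 CPM. On the log2(CPM + 0.5) scale neither passed this screen and Cdkn2d did, with Smchd1 null replicate 1 the lowest at 16.7 CPM and the next line at 22.7 CPM.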

How the results depend on the processing

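Cdkn1b kept its direction under all 18 alternatives and was DE under 8 of them, with FDRs from 0.0143 to 0.935. It was not DE with voom alone (log2 fold change -0.39), block weights, in which wild-type replicate 1 and Smchd1 null replicate 4 had variance factors of their own (-0.79), edgeR (-0.39), DESeq2 (-0.40), the replicate number as a block (-0.89, limma FDR 0.0716) or wild-type replicates 2 and 3 summed (-0.45). These 6 settings gave 0 DE genes among the 10, where 1, 2, 1, 2, 3 and 0 had an unadjusted p under 0.05. DESeq2 gave no p for Ccnd2, so that its counts are over 9 genes. Leaving out 1 line gave 0 to 1, and without Smchd1 null replicate 1 the DE gene was Ccnd1. An FDR threshold of 0.1 gave 2.

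Over all genes 1466 were DE, against 12 with voom alone, 493 with block weights, 521 after removal of wild-type replicate 1 and Smchd1 null replicate 4, 12 in edgeR, 382 in DESeq2, 222 with the replicate block, 1 with wild-type replicates 2 and 3 summed and 2797 at an FDR of 0.1. Leaving out 1 line gave 1 to 1683, and the count was 1 without wild-type replicate 2 and 1 without wild-type replicate 3. The 3 pathway lists held 4 DE genes, and 0, 2, 1, 0, 2, 0, 0 and 13 in the same order, or 0 to 6 with 1 line left out. The cause was not tested. The replicate numbers share no stated source. The deviations of same-numbered lines from their group means correlated at -0.147, 0.223 and -0.197. These are too few pairs to tell whether the numbers pair the lines.

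Among members that were not DE, Ccnd2 changed sign under block weights (-0.15), removal of the 2 low-weight lines (-0.36) and wild-type replicates 2 and 3 summed (-0.58). In edgeR and DESeq2 its log2 fold change was 1.432 and 1.445. Summing also turned Ccnd3 (0.017) and Cdk6 (-0.28), and the replicate block turned Cdk6 (-0.29) and Cdkn2d (0.041). Leaving out 1 line gave log2 fold changes of -1.11 to 0.44 for Ccnd2, -0.52 to 0.045 for Ccnd3, -0.65 to 0.95 for Cdk6, -0.19 to 0.11 for Cdkn2d and -0.93 to -0.37 for Cdkn1b. Ccnd1, Cdk4, Cdkn2b, Cdkn2c and Rb1 kept their sign under every alternative that tested them. In Ccnd1 and Cdk4 the lack of overlap between the groups left little room for a change of sign. RLE normalisation, batch as a covariate and other filters on low counts changed no call among the 10. Ccnd2 and Cdkn2b were too low to be tested with at least 10 counts in every sample, and depth limits both.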
